A study of Mus musculus with 8 samples.

Results

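Axon guidance genes were measured in mammary basal cells of mice. Basal cells form the outside layer of the milk ducts, and myoepithelial cells, which contract to move milk, belong to them. The set was chosen with earlier results of these data known, and its members were picked by gene name alone. It holds the protein-coding genes of the semaphorins of classes 3 to 7, the plexins, the A and B ephrins and their Eph receptors, Slit1 to Slit3, Robo1 to Robo3, the netrins Ntn1 and Ntn4, and the netrin receptors Dcc, Neo1 and Unc5a to Unc5d. These are 65 of the 54837 genes in the deposited table of counts. The cells came from untreated mice of strain C57BL/B6 and had been sorted into G1, the growth phase before DNA synthesis, and G0, in which cells rest and do not divide. Each of 4 runs gave 1 G1 and 1 G0 library, so there were 4 libraries per phase. The labels do not say how the phases were sorted, whether a run was 1 animal or a pool, or the animals' age. P-values therefore measure the spread between these libraries, part of which may be technical.

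Guidance molecules were named for steering growing axons, and epithelia and blood vessels use the same molecules to position cells, to keep cell layers apart and to control cell contacts. Semaphorins act through plexins, and most secreted class 3 semaphorins also need a neuropilin co-receptor. Ephrins are bound to the membrane and signal to Eph receptor tyrosine kinases on touching cells, with reverse signalling into the ephrin-bearing cell. Slits are secreted ligands of Robo receptors, and netrins bind Dcc, neogenin (Neo1) and the Unc5 receptors. In the mouse mammary gland, netrin-1 with neogenin and Slit2 with Robo1 are known for holding the luminal and basal layers of the duct together.

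Library totals ranged from 5868728 to 15014104 counts, and reads of the guidance set made up 0.172% to 0.261% of them. Of the marker lists, the 8 basal and myoepithelial markers summed highest, and all were detected. They reached between 26300 and 29800 CPM (counts scaled to a library of 1e+06) in G1 and between 19300 and 23900 CPM in G0. Next came the 7 luminal progenitor markers, Krt8 and Krt18 among them. These summed to between 1140 and 1900 CPM in G1 and between 1000 and 2120 CPM in G0. The 14 endothelial markers, also all detected, summed to between 44.6 and 162 CPM in G1 and between 196 and 365 CPM in G0. Other markers also moved with the phase, in a fit with the run as a block. Lower in G1 were 4 of 10 fibroblast markers, Col1a1, Col1a2, Lum and Pi16, at log2 fold changes of -1.11, -0.60, -1.61 and -2.32. The other way went 3 of the 10, Dcn, Mfap5 and Fbln1, at 0.58, 0.14 and 0.12, without being called. The fibroblast list summed to between 289 and 692 CPM in G1 and between 259 and 977 CPM in G0. Single markers of the adipocyte, lymphatic and hormone-sensing luminal lists, Lpl, Flt4 and Ly6a, were lower too, and of the 8 basal markers Acta2 and Cnn1 were higher. No pericyte, myeloid, lymphocyte, Schwann or luminal progenitor marker was called. In bulk samples, fewer cells of a type and less RNA per cell cannot be told apart. The G0 library of run 4 stood apart, with 39094 genes detected, while the other 7 libraries had 20836 to 26614. The gene with the most counts there was Gm10800, a predicted gene, at 8.13% of the library. Gm10800 also led in G1 of run 4, at 1.71%, and in G0 of run 3, at 1.19%, while Acta2 or Krt14 led the other 5 libraries. The main counts and some of the genes are given with and without run 4.

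Of the 65 guidance genes, 52 had enough counts to be tested and 13 did not. The filter keeps a gene that is high in either phase, so counts over the tested genes are a description and not evidence of a direction. The 13 low genes were Sema4f, Plxnb3, Plxnc1, Epha3, Epha5, Epha6, Epha8, Epha10, Slit1, Robo3, Dcc, Unc5a and Unc5d. Most of them are known chiefly from neurons. Among them, 11 stayed under 1 CPM in all 4 G1 libraries. All 13 were highest in the G0 library of run 4, where they had between 0.893 and 5.54 CPM, and none exceeded 1.77 CPM elsewhere. Of all genes in the table that had a count and were too low to test, 72.8% were highest in that library too. Unc5a, Epha5 and Unc5d also had 1.77, 1.41 and 1.41 CPM in G0 of run 3. Slit1, a neural Slit, was the highest of the 13 in G0 of run 4. It had 0.0709, 0, 0 and 0.149 CPM in G1 of runs 1 to 4, against 0, 0, 0.424 and 5.54 CPM in G0. Dcc, the netrin receptor of commissural axons, had 3 counts in the 4 G1 libraries together. Counts of Dcc were 2 in G0 of runs 1 to 3 together and 7 in G0 of run 4.

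Highest of the set in these libraries were the genes of ephrin-A1, netrin-4, ephrin-B1 and the receptors EphA2 and EphB4. Which cell type their reads came from was not tested. Levels between genes are given as CPM per kilobase of exon, over all annotated exons of a gene, so a gene with many isoforms reads low. Efna1, a ligand of EphA2, averaged 95.4 ± 12.1 CPM per kilobase in G1 and 100 ± 14.6 in G0 (SD, n = 4 each). Ntn4, a netrin related to laminin chains that lies in basement membranes, averaged 62.3 ± 30.2 CPM per kilobase in G1 and 76.4 ± 34.7 in G0. Below these came Efnb1 at 34.8 ± 6.09 CPM per kilobase in G1 and 41.2 ± 8.79 in G0. Epha2 averaged 30.5 ± 5.97 CPM per kilobase in G1 and 33.6 ± 7.14 in G0. Next were Ephb4, Ephb6, which lacks kinase activity, Sema3c, Sema4c, Plxnb2 and Efna5, with means over all 8 libraries between 25.1 CPM per kilobase for Ephb4 and 10.1 for Efna5. The ranges over the 8 libraries overlapped between every pair of neighbours in this order, so single steps in it do not exceed the spread between libraries. These 10 genes were the ones at 10 CPM per kilobase or more, 19.2% of the tested guidance genes against 31.7% of all tested genes. At the other end, 15 of the 52 averaged under 1 CPM per kilobase, Sema7a, Sema3g, Robo2 and Unc5c among them.

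**Figure D1:**
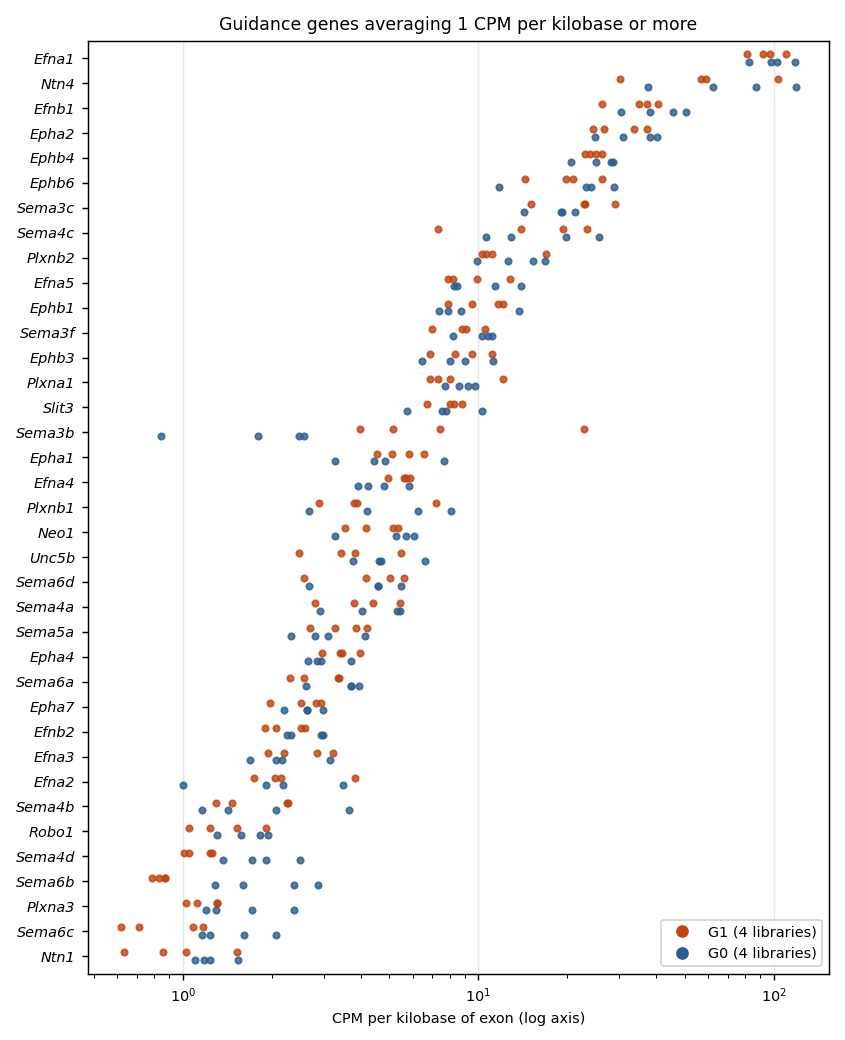
CPM per kilobase of exon (log axis) in each of the 8 libraries for the 37 tested guidance genes that average at least 1 CPM per kilobase, G1 above G0 within a row. Efna1 and Ntn4 lead, and Sema6b, Sema4d and Sema3b are genes of the plot whose phases do not overlap.

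Growing basal cells were set against resting ones. Most guidance genes differed little between the phases. When phase was the only term, the quasi-likelihood test of edgeR called 0 of the 52 tested members higher and 0 lower at a Benjamini-Hochberg adjusted p of 0.05. The background was the same, with 0% of the 15192 tested genes called in either direction. At an unadjusted p under 0.05, 1 member was higher, Sema3b, against 1.03% of all tested genes. On the lower side 7 members had an unadjusted p under 0.05, Sema6b, Sema3g, Sema4d, Sema7a, Sema6c, Efnb3 and Plxnd1, against 1.77% of all tested genes. Of the 33 members averaging at least 10 CPM, 30 had a log2 fold change within 0.50 of 0. The other 3 were Sema3b at 2.35 and Sema4d and Plxna2 at -0.71 and -0.69.

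Libraries of 1 run resembled each other, so the run was added to the model as a replicate block, and 1 member was called. It called 0 members higher, with 0.481% of all tested genes higher. Sema6b was the 1 member called lower, with 0.764% of all tested genes lower. At an unadjusted p under 0.05 this fit had 2 members higher, Sema3c and Sema4g, against 6.58% of all tested genes. It had 10 lower, or 19.2%, against 5.69% of all tested genes. At least 2-fold lower were Sema3g, Sema6b and Sema7a, against 2.46% of all tested genes, and at least 2-fold higher was Sema3b, against 0.546%; this is a count of sizes with no test. Limma-voom called no member in either direction with the phase alone. DESeq2 called Sema3b higher with the phase alone (adjusted p = 0.00335) and, with the block, Sema6b and Sema7a lower (adjusted p = 0.0249 and 0.0426). Within each run, 4 members were higher in G1 in all 4 runs, against 11.3% of all tested genes. Those lower in G1 in all 4 runs numbered 12, or 23.1% of the 52, against 9.44% of all tested genes. Without run 4, 14 members were lower in the other 3 runs, or 26.9%, against 13.5% of all genes.

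The median log2 ratio of the 52 members was -0.04, -0.18, -0.05 and -0.49 in runs 1 to 4. Over all tested genes it was 0.01, 0.02, 0.02 and -0.01. Run 4 thus held the lowest median of the members. The G0 library of run 4 was the highest of the 8 for 22 of the 52 members, or 42.3%, against 19.3% of all tested genes. In the blocked fit 37 of the 52 members, or 71.2%, had a negative fold change, against 48.9% of all tested genes, and 15 had a positive one, against 51.1%. Without run 4 it was 31 of 50, or 62.0%, against 48.7%, and the median of the members was -0.04 instead of -0.14. The same runs had endothelial medians of -2.21, -1.93, -1.11 and -1.48.

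**Figure D2:**
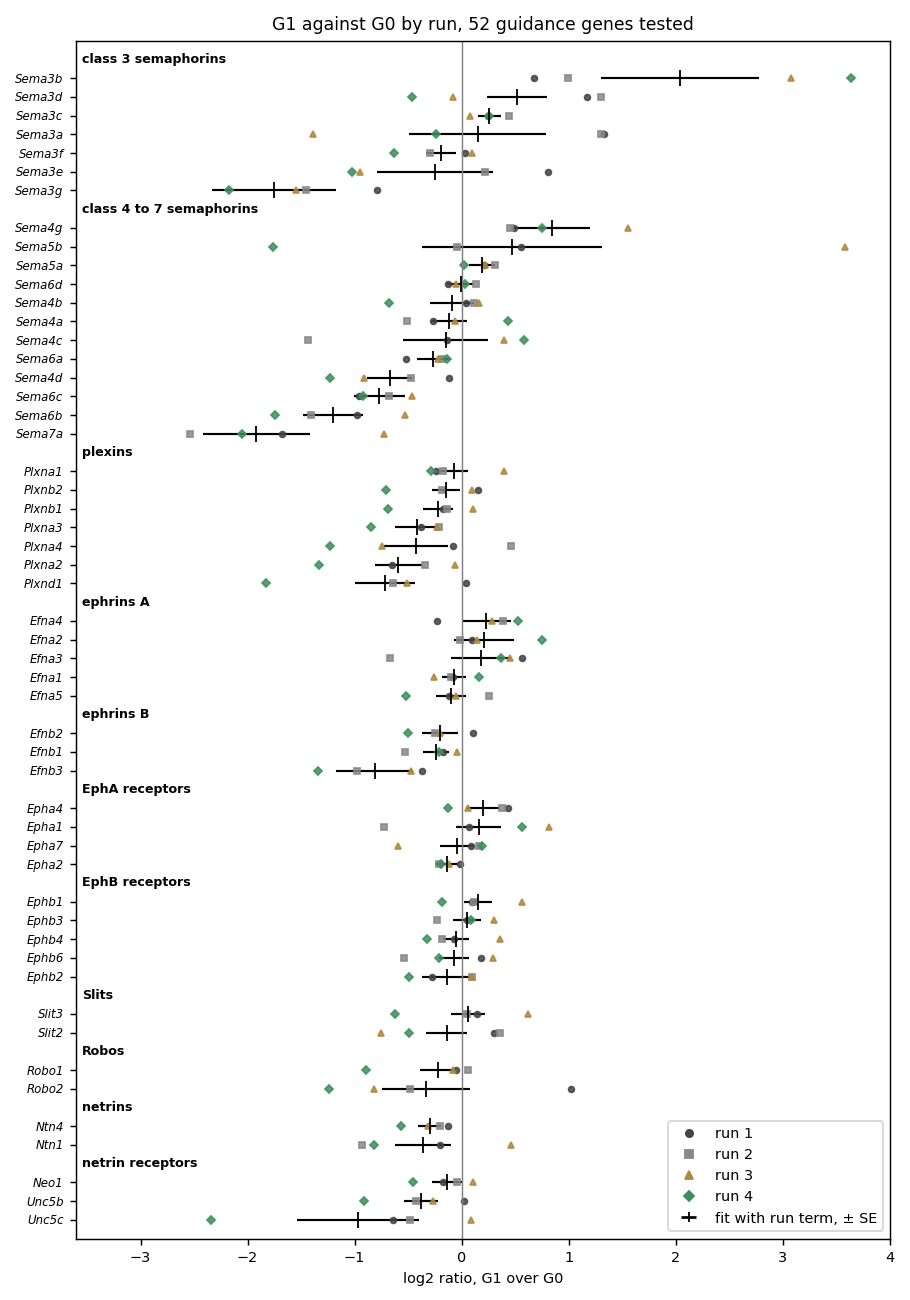
Log2 ratio of G1 over G0 for the 52 tested guidance genes by role, with 1 symbol per run and, as black bars, the edgeR estimate with the run as a block ± its standard error. Most bars lie near 0. Sema6b, Sema7a and Sema3g are among the 12 genes with all 4 runs below 0, and Sema3b is among the 4 with all runs above.

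Among the semaphorins, the membrane-bound Sema6b fell in G1 in the blocked fit. Sema6B is a transmembrane semaphorin that binds class A plexins. It had 3.12, 3.45, 3.47 and 3.29 CPM in G1 of runs 1 to 4, against 6.35, 9.48, 5.09 and 11.4 CPM in G0. The phases did not overlap, and its G1 values lay close together while the G0 values spread. Ranges with G1 wholly below G0 were found for 5 of the 52 members and for 1.17% of all tested genes. The log2 fold change of Sema6b was -1.27 ± 0.33 with the phase alone (adjusted p = 0.886). With the block it was -1.20 ± 0.28 (adjusted p = 0.0289), or 2.29-fold lower. The call was lost without run 2 (-1.10, adjusted p = 0.179) and without run 4 (-1.03, adjusted p = 0.25). It was kept without run 1 (-1.25, adjusted p = 0.0267) and without run 3 (-1.41, adjusted p = 0.00173). The gene had 22 to 45 counts per library in G1 and 64 to 106 in G0. Endothelial markers were lower in G1 in the same runs, with 13 of 14 called in the blocked fit. Of 10 fibroblast markers, 4 were called lower too, and 3 had positive fold changes. The part of either cell type in the Sema6b result was not tested. The gene, ENSMUSG00000001227, spans chr17:56123085-56140343 of GRCm38 and is read from the minus strand.

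Sema7a and Sema6c were lower in G1 in all 4 runs, like Sema6b, without passing the edgeR test on all libraries. Sema7A, which a GPI anchor holds to the membrane, binds plexin C1 and integrins. It had 0.354, 0.307, 2.14 and 0.896 CPM in G1 of runs 1 to 4, against 1.54, 2.68, 3.67 and 4.29 CPM in G0. Every run had the lower value in G1, but the G1 library of run 3 was above the G0 library of run 1. Its log2 fold change was -1.73 ± 0.65 with the phase alone (adjusted p = 1) and -1.92 ± 0.50 with the block (adjusted p = 0.0593), on 4 to 52 counts per library. The blocked fit called Sema7a without run 3 (-2.47, adjusted p = 0.0145). It did not without run 2 (-1.60, adjusted p = 0.271) or without run 4 (-1.82, adjusted p = 0.306). Sema6c, a transmembrane semaphorin of the same class as Sema6b, had 3.68, 4.22, 6.94 and 6.42 CPM in G1, against 7.35, 6.89, 9.61 and 12.3 CPM in G0. The ranges just overlapped, between G1 of run 3 and G0 of run 2. The log2 fold change of Sema6c was -0.77 ± 0.32 (adjusted p = 1), and -0.77 ± 0.24 with the block (adjusted p = 0.133).

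The 250 bases before the starts of 3 of the 12 members lower in every run are shown as examples chosen after their values were seen: Sema6b and Sema7a, the members that any blocked fit called, and Sema6c, of the same class as Sema6b. They are printed 5′ to 3′ on the gene's strand, from RefSeq's promoter windows on GRCm38.p6, with motif matches in capitals. Each is the listed start nearest to the GENCODE start of the gene, and RefSeq had a promoter for 55 of the 65 members. The windows are chr17:56140344-56140593 on the minus strand for Sema6b, chr9:57939862-57940111 on the plus strand for Sema7a and chr3:95160170-95160419 on the plus strand for Sema6c.
Sema6b: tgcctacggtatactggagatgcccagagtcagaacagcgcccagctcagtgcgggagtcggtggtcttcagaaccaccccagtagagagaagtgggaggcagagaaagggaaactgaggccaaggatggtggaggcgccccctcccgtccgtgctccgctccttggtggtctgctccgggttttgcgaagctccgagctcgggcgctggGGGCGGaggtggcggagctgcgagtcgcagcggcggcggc
Sema7a: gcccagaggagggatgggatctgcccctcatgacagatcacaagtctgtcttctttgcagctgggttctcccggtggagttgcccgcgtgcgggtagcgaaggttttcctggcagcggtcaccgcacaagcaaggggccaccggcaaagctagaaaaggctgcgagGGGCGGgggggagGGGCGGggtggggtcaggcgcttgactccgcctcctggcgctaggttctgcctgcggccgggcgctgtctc
Sema6c: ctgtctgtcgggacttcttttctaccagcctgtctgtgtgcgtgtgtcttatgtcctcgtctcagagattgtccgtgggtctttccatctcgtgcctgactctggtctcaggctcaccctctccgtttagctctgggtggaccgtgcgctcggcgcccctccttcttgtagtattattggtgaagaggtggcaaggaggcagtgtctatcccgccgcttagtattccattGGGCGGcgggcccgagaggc
The motifs searched on both strands were the GC box GGGCGG, the ETS core CCGGAA, the E-box CACGTG, the TATA box TATAAA and TTTCCCGC, a form of the E2F site. Only the GC box matched, at 1 place in Sema6b, 2 in Sema7a and 1 in Sema6c. It is found in 32.7% of all 32851 RefSeq promoter windows of this length. The other 4 motifs occur in 12.0%, 6.02%, 12.4% and 0.895% of windows, in the order named. G and C made up 66.0%, 66.4% and 57.6% of the 3 windows.

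Sema4d and Sema3g were lower in every G1 library than in any G0 library, without passing the test. Sema4D is the best-known ligand of plexin B1. It had 9.64, 9.51, 7.76 and 8.07 CPM in G1 of runs 1 to 4, against 10.5, 13.2, 14.7 and 19.1 CPM in G0. The gap was small in run 1 and widest in run 4, with log2 ratios of -0.12 and -1.23. The log2 fold change was -0.71 ± 0.24 (adjusted p = 1), and -0.67 ± 0.21 with the block (adjusted p = 0.138). Without run 4 the blocked value of Sema4d was -0.51 (adjusted p = 0.597). Sema3g, a secreted semaphorin known from arterial endothelium, had 0.496, 0.537, 0.408 and 0.448 CPM in G1, against 0.998, 1.79, 1.55 and 2.68 CPM in G0. These are 3 to 7 counts per library in G1 and 11 to 22 in G0. Its log2 fold change of -1.83 ± 0.53 (adjusted p = 1), or -1.75 ± 0.58 with the block (adjusted p = 0.165), rests on those few reads. Without run 4 the blocked value of Sema3g was -1.54 (adjusted p = 0.566).

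Sema3b was the 1 member whose G1 values all lay above its G0 values, which held for 0.829% of all tested genes. Sema3B is a secreted semaphorin known as a candidate tumour suppressor. It had 19.0, 24.7, 35.5 and 109 CPM in G1 of runs 1 to 4, against 11.8, 12.3, 4.03 and 8.58 CPM in G0. The G1 library of run 4 stood far above the others, and within runs the log2 ratio was 0.68, 0.99, 3.08 and 3.64. The log2 fold change was 2.35 ± 0.59 with the phase alone (adjusted p = 0.995) and 2.04 ± 0.74 with the block (adjusted p = 0.451). Without run 4 the blocked value was 1.53 (adjusted p = 0.469). DESeq2 with the phase alone called it, and DESeq2 with the block did not (adjusted p = 0.0891). Sema3f, a ligand that works through neuropilin-2, lies 72.3 kb from Sema3b on chromosome 9. It had 54.8, 47.1, 45.7 and 36.2 CPM in G1, against 53.7, 57.9, 42.7 and 55.9 CPM in G0. Its phases overlapped, and its log2 fold change was -0.19 ± 0.18 (adjusted p = 1).

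Sema3c, the class 3 semaphorin highest per kilobase, was slightly higher in G1 in each run. It had 163, 207, 108 and 164 CPM in G1 of runs 1 to 4, against 136, 152, 102 and 137 CPM in G0. The order of the runs was the same in both phases, and the ranges of the phases overlapped. The log2 fold change was 0.28 ± 0.21 (adjusted p = 1), and 0.26 ± 0.11 with the block (adjusted p = 0.326). Sema4c, a ligand of plexin B2, varied more between runs than between phases. Its CPM was 107, 33.6, 64.2 and 88.7 in G1, against 118, 91.3, 48.8 and 59.3 in G0. The transmembrane Sema6d averaged 45.9 ± 13.9 CPM in G1 and 45.8 ± 12.5 CPM in G0. Sema5a and Sema4g were also higher in G1 in all 4 runs, at blocked log2 fold changes of 0.19 ± 0.12 and 0.84 ± 0.36, and Sema6a was lower in all 4, at -0.27 ± 0.15. Sema3a, Sema3d, Sema3e, Sema4a, Sema4b and Sema5b had mixed signs across the runs.

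**Figure D3:**
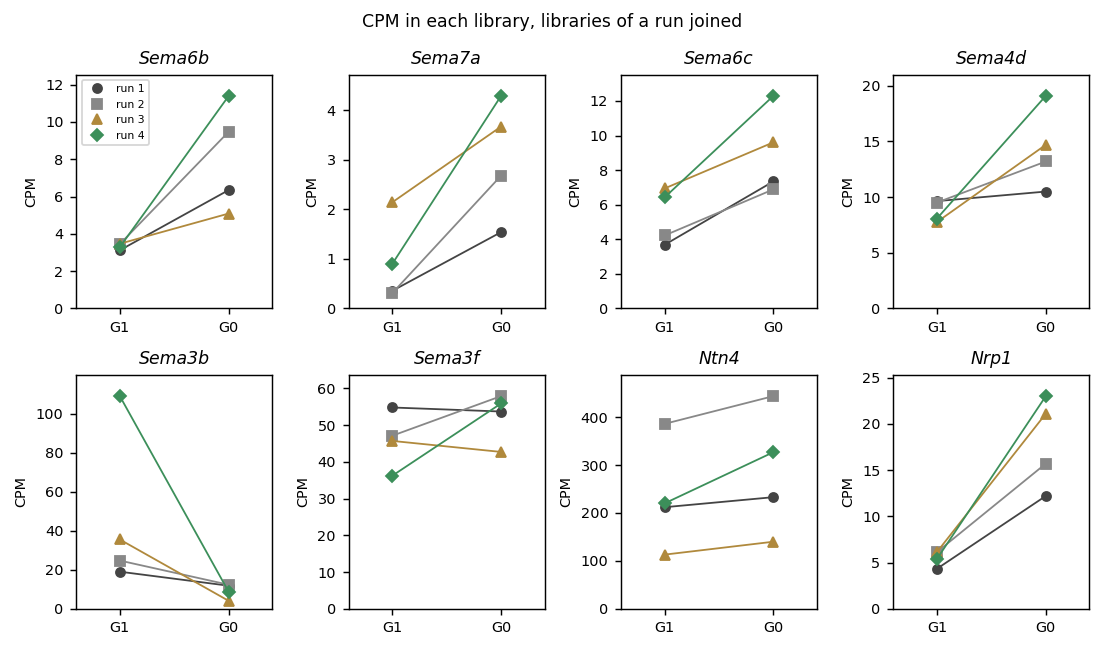
CPM in each library for 7 guidance genes and the co-receptor gene Nrp1, with the G1 and G0 libraries of a run joined by a line and each panel starting at 0. Sema6b, Sema7a, Sema6c, Sema4d and Nrp1 climb towards G0 in every run, Sema3b drops towards G0, and Ntn4 keeps the order of the runs in both phases.

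No plexin passed the test. All 7 tested had negative fold changes in the blocked fit, with a median of -0.42, where 48.9% of all tested genes were negative. Without run 4, 6 of the 7 were negative and the median was -0.15, since Plxnb2 stood at 0.02. Within runs 1 to 4 the plexin median was -0.17, -0.18, -0.06 and -0.85. Plexins are the signalling receptors of semaphorins, and Plxnb2 and Plxna1 were the highest per kilobase. Plxnb2 had 131, 86.0, 82.2 and 79.6 CPM in G1 of runs 1 to 4, against 118, 97.4, 76.6 and 130 CPM in G0. In runs 1 and 3 it was higher in G1 and in runs 2 and 4 lower. Its log2 fold change was -0.15 ± 0.22 (adjusted p = 1), and that of Plxna1, a receptor that class 3 and class 6 semaphorins share, was -0.04 ± 0.20 (adjusted p = 1). Plxna2 had 6.59, 7.74, 9.19 and 8.96 CPM in G1, against 10.4, 9.84, 9.61 and 22.9 CPM in G0. Its phases did not overlap, but in G0 the run 4 library was far above the other 3. The blocked log2 fold change of Plxna2 was -0.59 ± 0.22 (adjusted p = 0.238), and -0.37 without run 4. Plxnd1, the receptor of Sema3E in vessels, had 6.16, 4.37, 5.51 and 4.33 CPM in G1, against 5.99, 6.89, 7.91 and 15.9 CPM in G0. With the block its log2 fold change was -0.72 ± 0.28 (adjusted p = 0.255), and -0.38 without run 4. Plxna3, Plxna4 and Plxnb1 had blocked values of -0.42, -0.43 and -0.22.

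Neuropilin-1, the co-receptor through which many class 3 semaphorins reach plexins, had a larger fold change than any plexin, and it is not a member of the set. Nrp1 had 4.32, 6.13, 6.13 and 5.38 CPM in G1 of runs 1 to 4, against 12.2, 15.7, 21.1 and 23.0 CPM in G0. It fell in the blocked fit, at -1.67 ± 0.21 (adjusted p = 2.62e-05), and stayed called without any 1 run (highest adjusted p = 0.00186 without run 4). With the phase alone its log2 fold change was -1.71 ± 0.27 (adjusted p = 0.286). Endothelium expresses Nrp1 as a VEGF co-receptor, and the endothelial markers fell over the same runs. The part of endothelial RNA, or of RNA from other cell types, in the Nrp1 result was not tested. Nrp2 had 8.64, 12.6, 13.6 and 19.3 CPM in G1, against 15.4, 12.9, 19.4 and 22.7 CPM in G0. The ranges of Nrp2 overlapped, and its blocked log2 fold change was -0.40 ± 0.18 (adjusted p = 0.37).

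The ephrins and Eph receptors included the most abundant members, and none of them passed. Efna1 had 178, 202, 149 and 169 CPM in G1 of runs 1 to 4, against 188, 216, 179 and 151 CPM in G0. Its receptor gene Epha2 had 114, 125, 174 and 157 CPM in G1, against 116, 145, 189 and 178 CPM in G0. Both ranges overlapped almost wholly, and the log2 fold changes were -0.07 ± 0.17 and -0.14 ± 0.21 (adjusted p = 1 for each). Epha2 was slightly lower in G1 in all 4 runs, with a blocked log2 fold change of -0.14 ± 0.11 (adjusted p = 0.683). Efna1, Efna3 and Efna4 lie within 1 cluster on chromosome 3, with gaps of 32.8 kb and 10.4 kb. Their log2 fold changes were -0.07 ± 0.17, 0.17 ± 0.31 and 0.23 ± 0.24, each within 1 standard error of 0. Differences between these neighbours were not tested. An antisense gene, 4731419I09Rik, overlaps exons of Efna4 at a mean of 42.3 CPM against 8.19 CPM for Efna4, and whether reads were counted by strand is not stated. Efna5 averaged 39.2 ± 9.01 CPM in G1 and 42.4 ± 10.7 CPM in G0.

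Of the ephrin-B ligands, Efnb1 had 140, 121, 129 and 90.7 CPM in G1 of runs 1 to 4, against 157, 175, 132 and 105 CPM in G0. It was lower in G1 within every run, by log2 ratios of -0.17, -0.53, -0.04 and -0.21, while the ranges overlapped. Its log2 fold change was -0.24 ± 0.20 (adjusted p = 1), and -0.24 ± 0.12 with the block (adjusted p = 0.415). Efnb3, far lower in level, had 2.34, 2.22, 2.45 and 1.79 CPM in G1, against 3.08, 4.56, 3.46 and 4.82 CPM in G0. Those ranges did not overlap, and the log2 fold change was -0.84 ± 0.35 (adjusted p = 1). With the block it was -0.81 ± 0.36 (adjusted p = 0.356), and between -0.96 and -0.66 with 1 run left out. Efnb2, known from arterial endothelium, averaged 15.6 ± 2.35 CPM in G1 and 18.0 ± 2.66 CPM in G0. Ephb4, whose product is the venous partner of ephrin-B2, had 111, 116, 122 and 107 CPM in G1, against 116, 131, 95.4 and 133 CPM in G0. Ephb4 averaged 114 ± 6.58 CPM in G1 and 119 ± 17.4 CPM in G0, with a log2 fold change of -0.06 ± 0.16 (adjusted p = 1). Ephb6 averaged 76.7 ± 18.3 CPM in G1 and 82.9 ± 27.3 CPM in G0.

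Among the other tested Eph receptors, Ephb1 and Ephb3 averaged 72.1 ± 13.6 and 59.7 ± 12.1 CPM in G1, and 66.1 ± 20.4 and 57.7 ± 13.1 CPM in G0. Epha4, Epha7 and Ephb2 had log2 fold changes of 0.19, -0.03 and -0.18. Epha1 averaged 21.7 ± 3.44 CPM in G1 and 19.8 ± 7.24 CPM in G0, and its exons share 236 bases with Zyx on the other strand, a gene at 348 CPM on average. None of these receptors differed between the phases beyond the spread between libraries.

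No Slit, Robo or netrin of the set passed the test in either fit. Slit3 had 50.4, 48.9, 53.7 and 40.8 CPM in G1 of runs 1 to 4, against 45.9, 47.2, 34.9 and 62.7 CPM in G0. Its log2 fold change was 0.03 ± 0.20 (adjusted p = 1), and that of Slit2 was -0.16 ± 0.26 (adjusted p = 1). Robo1, a receptor of these Slits, had 25.2, 31.5, 20.4 and 17.3 CPM in G1, against 26.1, 30.2, 21.6 and 32.2 CPM in G0. Only run 4 parted the phases of Robo1 widely, with a log2 ratio of -0.89, and the log2 fold change was -0.21 ± 0.23 (adjusted p = 1). With 1 run left out, the blocked value of Robo1 lay between -0.32 and -0.03. Robo2 was low, at 2.90 ± 2.40 CPM in G1 and 3.25 ± 1.14 CPM in G0. Robo4, which is restricted largely to endothelium and is not a member of the set, had 0.992, 1.92, 4.19 and 4.03 CPM in G1, against 6.17, 13.6, 13.4 and 14.7 CPM in G0. Robo4, which is also 1 of the 14 endothelial markers, fell in the blocked fit, at -2.21 ± 0.27 (adjusted p = 2.24e-05), but not with the phase alone (adjusted p = 0.556).

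Ntn4 differed far more between runs than between phases. It had 212, 386, 113 and 220 CPM in G1 of runs 1 to 4, against 233, 444, 140 and 327 CPM in G0. Run 2 was the highest and run 3 the lowest in both phases, and in each run G1 was the lower. The means of the runs spanned 3.27-fold and those of the phases 1.23-fold. The log2 fold change was -0.29 ± 0.40 with the phase alone (adjusted p = 1) and -0.30 ± 0.11 with the block (adjusted p = 0.228). Across the 52 members the run span was the larger for 43, or 82.7%, and across all tested genes for 94.9%. The run span takes the extremes of more means, each from fewer libraries, than the phase span. It tends to be larger even without a difference between runs, so these shares do not measure a run effect. Ntn1 averaged 6.35 ± 2.39 CPM in G1 and 7.95 ± 1.19 CPM in G0. Its receptor gene Neo1 averaged 39.7 ± 7.41 CPM in G1 and 44.3 ± 10.8 CPM in G0, with a log2 fold change of -0.15 ± 0.22 (adjusted p = 1). Unc5b, a netrin receptor also found in vessels, had 23.9, 21.5, 34.4 and 15.5 CPM in G1, against 23.6, 29.0, 41.5 and 29.3 CPM in G0. Its blocked log2 fold change was -0.38 ± 0.16 (adjusted p = 0.32). Unc5c averaged 0.958 ± 0.793 CPM in G1 and 2.31 ± 2.58 CPM in G0, where the run 4 library had 6.07 CPM. The blocked log2 fold change of Unc5c was -0.97 ± 0.57 (adjusted p = 0.528).

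**Figure D4:**
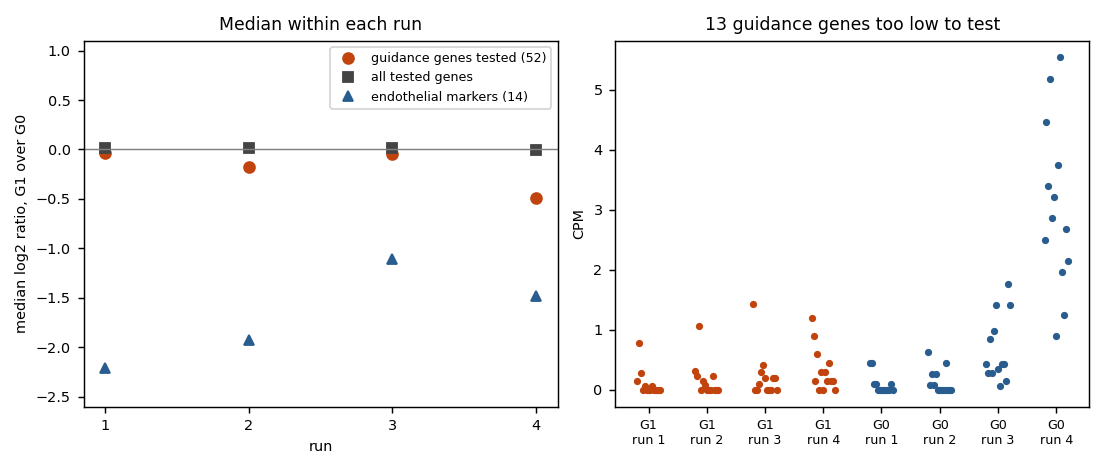
Left, median log2 ratio of G1 over G0 within each run for the 52 tested guidance genes, all tested genes and 14 endothelial markers. Right, CPM of the 13 guidance genes too low to test in each library, with points spread sideways within a library. The guidance median is lowest in run 4, at -0.49, and the 13 low genes reach up to 5.54 CPM in the G0 library of that run.

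Members known from blood vessels were read beside the endothelial markers. Of the 6 listed, Plxnd1, Ephb4, Efnb2, Unc5b, Sema3g and Efna1, none passed in either fit. All 6 had negative blocked fold changes, with a median of -0.29, but so had 31 of the 46 other tested members, with a median of -0.14. Ephb4 and Efna1 stood at only -0.05 and -0.07. Without run 4, 5 of the 6 and 26 of the 44 others were negative. The endothelial markers had a median of -1.71, with 13 of 14 called lower in the blocked fit, 7 of 14 without run 2 and 8 of 14 without run 4. The part of endothelial RNA in the values of Plxnd1, Unc5b and Sema3g was not tested.

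Genes that act with the guidance receptors were counted from lists of known partners. Of 20 tested plexin and semaphorin effectors, 0 were called in the blocked fit, with a median of -0.11. Of 16 tested Eph and ephrin effectors 0 were called, with a median of -0.08. Of 15 Slit, Robo and netrin effectors 1 was called lower, Ablim3, an actin-binding protein, and the median was -0.12. Ablim3 had 0.567, 1.99, 2.76 and 3.44 CPM in G1 of runs 1 to 4, against 3.54, 7.52, 5.86 and 9.65 CPM in G0. Its blocked log2 fold change was -1.71 ± 0.33 (adjusted p = 0.00488), and its highest adjusted p with 1 run left out was 0.049. Of 9 tested genes among the other netrins, Robo4, RGMs and related ligands, 1 was called lower, Robo4. Over all tested genes, 1.24% were called in either direction, with a median of 0.01. With the phase alone, 0 genes of these lists were called.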

How the data were processed

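RNA of 8 libraries was sequenced as paired-end reads after oligo-dT selection and a stranded preparation, per the labels. The submitters' processing notes name Trimmomatic 0.35, STAR 2.5.2a and mm10. How reads were counted, with or without strand and over which annotation, is not given in the sources used here. Raw counts per Ensembl gene are what the authors deposited. GENCODE M21 gave symbols for 54808 of the 54837 identifiers.

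Counts were scaled by TMM and filtered with filterByExpr by group, which left 15192 genes. They were tested with edgeR 4.0.16 (R 4.3.3, robust quasi-likelihood fit, two-sided) with the phase alone, adjusted by Benjamini-Hochberg over all tested genes at 0.05. Standard errors were derived from the fold change and its F statistic. Run ratios used a prior count of 2. Alternatives, described in the closing section, used limma 3.58.1 and DESeq2 1.42.0. The tests were tried on simulated counts.

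Deviations from the phase mean correlated at 0.668, 0.47, 0.638 and 0.437 between the G1 and G0 libraries of runs 1 to 4, and at 0.0971 or less between runs, so the run numbers pair the libraries. Counts of the 12 library pairs within a phase differed by more than sampling noise, with a chi-square of at least 23.99 for each degree of freedom.

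The members and lists were chosen with earlier results of these data known. The genes named are members called in either fit, the 8 smallest p in each, the 2 highest per kilobase in each role, and Nrp1, Nrp2 and Robo4. Other members, Ablim3 and the overlapping genes were named after their values were seen.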

Additional observations from a re-analysis of the deposited data

Results flagged for a closer look

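With 4 libraries per phase, a value was looked at again where its gap to the other 3, over the range of its phase, passed Dixon's limit at the 95% level, which chance alone passes in about 5% of groups. Of 68 groups of values, 3 did. Plxna2 had 22.9 CPM in G0 of run 4, against 9.61 to 10.4 CPM in the other G0 libraries. Plxnb2 had 131 CPM in G1 of run 1, against 79.6 to 86.0 CPM in the other G1 libraries. Robo4 had 6.17 CPM in G0 of run 1, against 13.4 to 14.7 CPM in the other G0 libraries.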

How the results depend on the processing

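Calls depended on the run term and the tool. With the phase alone, 0 members and 0 genes were called in either direction under RLE size factors, at least 10 counts in all 8 libraries, limma-voom and each library left out in turn (0 to 0 for members and for all genes). Without a filter on low counts 0 members but 14 genes were higher and 73 lower. DESeq2 called 1 member higher and 0 lower, among 10 genes higher and 24 lower. With the replicate block edgeR called 0 members higher and 1 lower, Sema6b, among 73 genes higher and 116 lower. The block with DESeq2 called 2 members lower, among 97 genes higher and 136 lower. A log2 fold change of at least 1 in the blocked fit left 1 member lower, among 15 genes higher and 91 lower. With 1 run left out of the blocked fit, 0 to 2 members were lower, Sema6b without run 1 and Sema6b with Sema7a without run 3. Without runs 1 to 4 in turn, 99, 63, 73 and 21 genes were higher and 175, 90, 144 and 76 lower. Members with 1 sign in every run numbered 5 to 8 higher and 14 to 18 lower with 1 run left out, an alternative chosen after seeing the data. Fewer runs make 1 sign more frequent in all tested genes too, at 16.5% to 18.2% higher and 13.5% to 16.2% lower, against 11.3% and 9.44% with 4 runs. Sema6b and Sema7a kept a negative sign and Sema3b a positive one under all alternatives run. No value reversed with a call. The block changed no other member's call. Sema3g and Sema7a rest on 52 counts or fewer per library; what more depth would show was not tested.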
